A study of Mus musculus with 8 samples.

Results

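The phagocyte NADPH oxidase was examined at 5 genes that encode its subunits: Cybb, Cyba, Ncf1, Ncf4 and Rac2. All PU.1 and CEBPA ChIP-Seq peaks with their centre in the body of one of these genes, or within 20 kb of it, were taken as members (GENCODE annotation, mm10). This gave 61 of the 67673 peaks listed in 4 libraries: 6 of 5288 PU.1 peaks and 18 of 26119 CEBPA peaks in the empty vector (EV) line, and 20 of 15683 PU.1 peaks and 17 of 20583 CEBPA peaks in the PuER line. None of the 61 peaks fell in the windows of more than 1 of these genes.

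Both lines came from X18.1.1, a mouse acute myeloid leukaemia line that arose after irradiation. X18.1.1 has lost one Pu.1 allele, and the remaining allele has a missense change in the domain that contacts DNA and lacks a stretch of the PEST domain. PuER cells also received a retrovirus encoding wild-type PU.1 fused to a tamoxifen-responsive oestrogen receptor domain, which is activated by 4-hydroxytamoxifen (OHT), whereas EV cells received the same puromycin-selected vector without the fusion gene. Each line was 1 clone, and both were given 100 nM OHT for 2 h. Mutant endogenous PU.1 was thus present in both lines, and in PuER cells it cannot be told apart from the fusion protein in the peak list. There was 1 library for each antibody and line, so no difference between the lines could be set against a spread between replicates, and p-values are not given.

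The NADPH oxidase transfers electrons from NADPH to oxygen and makes superoxide, which phagocytes use against ingested microbes. Its membrane core is made of gp91phox (Cybb), the catalytic subunit, and p22phox (Cyba), which stabilises it. In resting cells the organiser p47phox (Ncf1) and p40phox (Ncf4) stay in the cytosol, and on stimulation they join the membrane core together with the GTPase Rac2. Loss of a subunit causes chronic granulomatous disease or a related immunodeficiency. PU.1, an ETS-family factor, and CEBPA, a basic leucine zipper factor, are both regulators of myeloid genes.

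Sequences are given from the centres of some of the peaks called in one line only, chosen with their matches known. Each is given 5′ to 3′ on the strand of its gene, from the GRCm38 (mm10) reference. Capitals mark exact matches, on either strand, to the ETS word GGAAGT, its longer PU.1-type form GAGGAAGT, the shorter ETS core AGGAA, the ETS-IRF composite word (GGAA and GAAA, 2 bases apart) and the CEBP word TTGCNNAA. The PU.1-type word contains the ETS word and the ETS core, the ETS word contains the core only where an A precedes it, and the ETS-IRF word can overlap all of them. A match describes the letters of the sequence and does not show which protein was bound. Positions are those of the peak centre from the main transcription start, defined as the start of the transcript with the longest coding sequence, and are positive downstream of it.

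The first set holds the 80 bp around the centres of the 4 PU.1 peaks of Cybb that lay in introns and were called only in PuER. They occupied chrX:9460446-9460525, chrX:9462881-9462960, chrX:9470957-9471036 and chrX:9474531-9474610.
Cybb at +8839 bp: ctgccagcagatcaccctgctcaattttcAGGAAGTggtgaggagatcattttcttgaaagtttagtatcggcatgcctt
Cybb at +6404 bp: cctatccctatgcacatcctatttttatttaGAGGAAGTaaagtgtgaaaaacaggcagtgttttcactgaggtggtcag
Cybb at -1672 bp: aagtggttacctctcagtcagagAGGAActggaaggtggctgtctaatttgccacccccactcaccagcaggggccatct
Cybb at -5246 bp: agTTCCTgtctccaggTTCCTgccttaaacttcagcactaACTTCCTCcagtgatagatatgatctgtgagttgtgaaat

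The PU.1-type word was present at +6404 and -5246 bp, the shorter ETS word at +8839 bp, and the ETS core alone at -1672 bp. The fifth PuER-only peak of Cybb was centred 20 bp into the transcript, in the 5′ untranslated region. Its ETS-IRF word covered bases 4 to 13 of the transcript, on the strand opposite to the gene, and is shown with 10 bases on either side (chrX:9469302-9469331). In this sequence only the ETS-IRF word is in capitals, and an ETS core (TTCCT as printed) overlaps its end.
Cybb at +20 bp, ETS-IRF word: aagctgctgtTTTCATTTCCtcatcagaag

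The 250 bases upstream of the start (RefSeq, GRCm38.p6, chrX:9469325-9469574) are given because the same peak covered most of them.
Cybb promoter: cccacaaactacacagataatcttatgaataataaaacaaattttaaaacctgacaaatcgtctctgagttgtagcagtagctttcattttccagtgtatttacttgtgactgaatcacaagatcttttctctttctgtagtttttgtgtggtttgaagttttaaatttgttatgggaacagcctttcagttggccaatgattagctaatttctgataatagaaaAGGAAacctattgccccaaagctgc

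This promoter held none of the ETS, PU.1-type, ETS-IRF and CEBP words. It held the ETS core at -25 to -21 bp, a RUNX word (TGTGGT or TGCGGT) at -103 to -98 bp and an AP-1 word (TGANTCA) at -139 to -133 bp. Over 32851 promoters of the same length in that table, the ETS core was found in 60.3%, a RUNX word in 18.6% and an AP-1 word in 6.75%. The table held 3 of the 5 genes (Cybb, Cyba and Ncf1). In the 250 bases of Cyba and of Ncf1 none of the words was found, whereas the ETS word was found in 19.7% of all promoters, the PU.1-type word in 2.44%, the CEBP word in 9.56% and the ETS-IRF word in 2.3%. The Ncf1 promoter (chr5:134229626-134229875) is shown because a PU.1 peak shared by both lines was centred on its start.
Ncf1 promoter: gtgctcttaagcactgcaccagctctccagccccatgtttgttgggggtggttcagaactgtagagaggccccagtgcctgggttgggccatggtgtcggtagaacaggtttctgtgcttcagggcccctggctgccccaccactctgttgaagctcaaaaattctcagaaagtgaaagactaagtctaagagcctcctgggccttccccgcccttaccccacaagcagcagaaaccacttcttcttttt

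The next set comes from Cyba and Rac2 and includes the pair of PU.1 peaks that coincided with CEBPA peaks also called only in PuER, at Cyba +2658 bp and Rac2 -16352 bp. The windows were chr8:122432518-122432597, chr8:122430233-122430312 and chr15:78589096-78589175.
Cyba at +373 bp: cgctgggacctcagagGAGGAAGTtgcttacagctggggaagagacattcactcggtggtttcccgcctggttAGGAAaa
Cyba at +2658 bp: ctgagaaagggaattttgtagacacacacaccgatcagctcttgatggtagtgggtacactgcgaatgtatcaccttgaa
Rac2 at -16352 bp: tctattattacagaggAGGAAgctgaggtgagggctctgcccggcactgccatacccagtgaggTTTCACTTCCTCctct

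The PU.1-type word lay in the centre of the Cyba peak at +373 bp and, overlapping an ETS-IRF word, in that of the Rac2 peak. The centre of the Cyba peak at +2658 bp held none of the marked words, and its single PU.1-type word lay outside the central 80 bp. Of all 15 PuER-only PU.1 peaks at these genes, 5 held the ETS word in the central 80 bp (33.3%, against 42.9% of all PuER-only PU.1 peaks), and 4 of these held its PU.1-type form (26.7%, against 15.5%). All 5 are among the sequences above, and the 7 PuER-only PU.1 peaks of Ncf1, Ncf4 and Rac2 that are not shown held 0 ETS words in their centres.

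The last set gives the centres of 3 of the 5 peaks called only in EV, at Ncf4 for PU.1 (chr15:78257344-78257423) and at Cybb and Ncf1 for CEBPA (chrX:9450115-9450194 and chr5:134208811-134208890).
Ncf4 PU.1 at +12582 bp: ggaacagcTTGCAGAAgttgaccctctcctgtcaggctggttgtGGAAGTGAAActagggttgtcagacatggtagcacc
Cybb CEBPA at +19170 bp: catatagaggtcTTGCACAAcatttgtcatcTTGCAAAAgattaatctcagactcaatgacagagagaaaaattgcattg
Ncf1 CEBPA at +20775 bp: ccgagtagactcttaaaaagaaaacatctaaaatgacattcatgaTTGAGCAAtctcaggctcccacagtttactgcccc

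The EV-only PU.1 peak of Ncf4 held an ETS-IRF word that contains the ETS word, and a CEBP word. The central 80 bp held 2 CEBP words in the CEBPA peak of Cybb and 1 in that of Ncf1 at +20775 bp. The other EV-only CEBPA peaks, at Ncf1 +8157 bp and Rac2 -8739 bp, are not shown and held 0 CEBP words in their centres. That of Ncf1 held 2 in its 400 bp, centred at -62.5 and 37.5 bp from the peak centre, neither wholly inside the central 80 bp.

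For each antibody, a PuER peak that touched an EV peak by 1 bp or more was counted as shared, and the rest as called in one line only. At the oxidase genes there were 15 PuER-only, 5 shared and 1 EV-only PU.1 peaks. Each of the 5 genes had at least 1 PuER-only PU.1 peak, against 36.7% of all 21951 protein-coding genes under the same window. The genes were chosen with earlier results of these data known, so these shares describe them and do not test for an excess. Shared PU.1 peaks were present at 3 of the 5 genes (Ncf1, Ncf4 and Rac2), against 13.4% of all genes, and an EV-only peak at 1 (Ncf4), against 13.7%. Of the 20 PuER peaks, 15 were PuER-only, which is 75% (95% exact binomial interval 50.9 to 91.3). This and later intervals cover counting error only and treat peaks as independent. The share over all PU.1 peaks of PuER was 81.1%, inside that interval. Of the 6 EV peaks, 1 had no partner in PuER, against 43.8% of all PU.1 peaks of EV, and the interval of 0.421 to 64.1% includes that share. With 6 peaks, this interval does not show that the shares were alike.

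**Figure D1:**
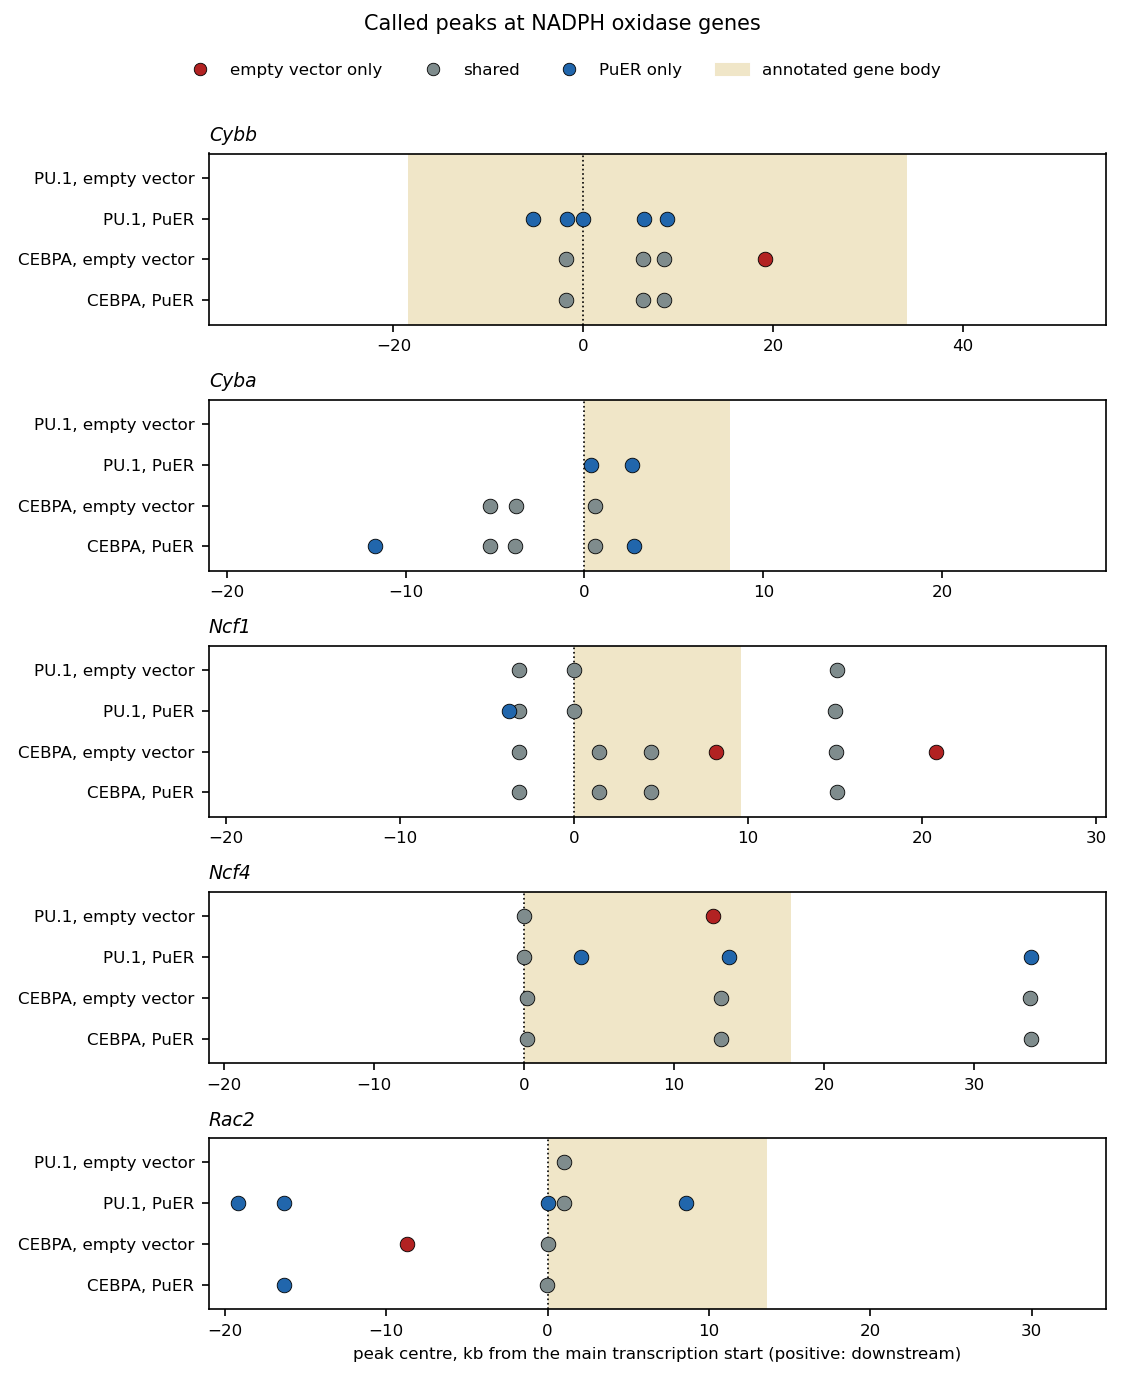
Peaks at the 5 genes, one panel per gene; the x axis is the distance of the peak centre from the main transcription start in kb (positive downstream), each row is one library, and colour gives the class of call. The EV row of PU.1 is empty at Cybb and Cyba, which had 5 and 2 PU.1 peaks in PuER.

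CEBPA was called mostly at the same sites in both lines. Of its peaks at these genes 14 were shared, 4 were EV-only and 3 were PuER-only. Shared CEBPA peaks were found at 5 of the 5 genes, against 48.3% of all genes. EV-only CEBPA peaks were found at 3 (Cybb, Ncf1 and Rac2), against 30.1%, and PuER-only ones at 2 (Cyba and Rac2), against 11.4%. Of the 18 EV peaks 22.2% (interval 6.41 to 47.6%) had no partner in PuER, against 30.7% of all CEBPA peaks of EV. Of the 17 PuER peaks 17.6% (interval 3.8 to 43.4%) had no partner in EV, against 12.1% of all CEBPA peaks of PuER. Both background shares were inside the intervals. Shared peaks sat at nearly the same place in both lines, with centres 0 to 44 bp apart for CEBPA (median 10.5 bp, n = 14) and 5 to 76 bp apart for PU.1 (median 9 bp, n = 5), in peaks that are all 400 bp wide.

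**Figure D2:**
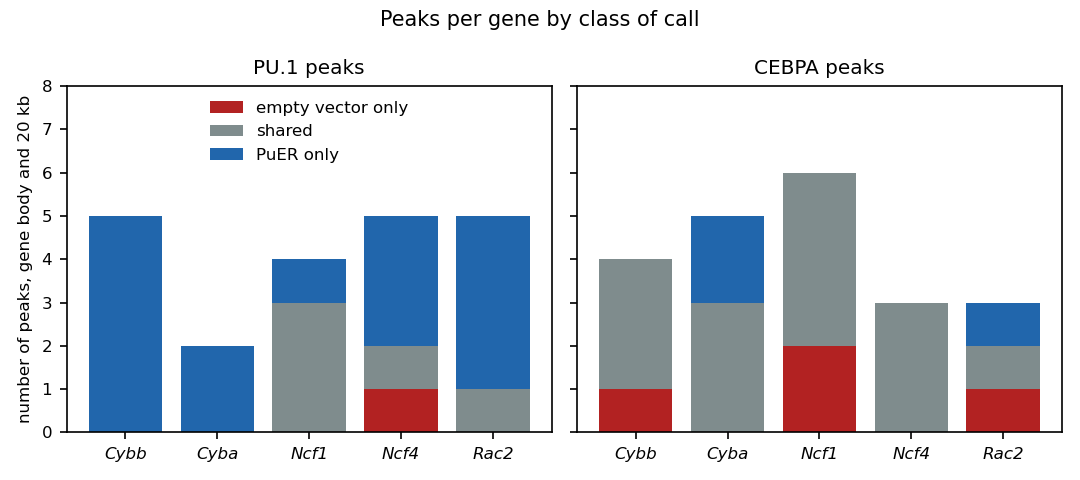
Number of PU.1 peaks (left) and CEBPA peaks (right) in the gene body or within 20 kb of each gene, stacked by class of call. The PU.1 bars of Cybb and Cyba hold PuER-only peaks alone, and 3 of the 4 PU.1 peaks of Ncf1 were shared.

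Because a longer gene has a larger window, the counts were also set against its length. The 5 windows together spanned 302 kb and held 4.97 PuER-only PU.1 peaks per 100 kb, against 0.747 over the windows of all protein-coding genes, where a peak can count for several neighbouring genes. The same densities were 1.66 against 0.189 for shared PU.1 peaks and 0.332 against 0.177 for EV-only PU.1 peaks. For CEBPA they were 4.64 against 1.18 (shared), 1.33 against 0.508 (EV-only) and 0.995 against 0.151 (PuER-only). Every class of both factors was thus denser in these windows than around genes in general. However, EV-only PU.1 rests on 1 peak, PuER-only CEBPA on 3 and EV-only CEBPA on 4.

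The order of the genes by PuER-only PU.1 peaks was Cybb with 5, Rac2 with 4, Ncf4 with 3, Cyba with 2 and Ncf1 with 1. At least as many such peaks were found at 1.75% of all protein-coding genes for Cybb, 3.27% for Rac2, 6.8% for Ncf4, 15.3% for Cyba and 36.7% for Ncf1. Per 100 kb of window the order changed, with 7.46 at Rac2, 5.4 at Cybb, 5.19 at Ncf4, 4.15 at Cyba and 2.02 at Ncf1. Neighbours in either order differed by 1 peak or by the length of their windows (48.2 to 92.5 kb), and no replicate spread was available to separate them. The count of Rac2 was 2 instead of 4 with a 10 kb window, with the gene body alone or by nearest start, where Rac2, Ncf4 and Cyba were tied at 2 behind Cybb with 5.

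**Figure D3:**
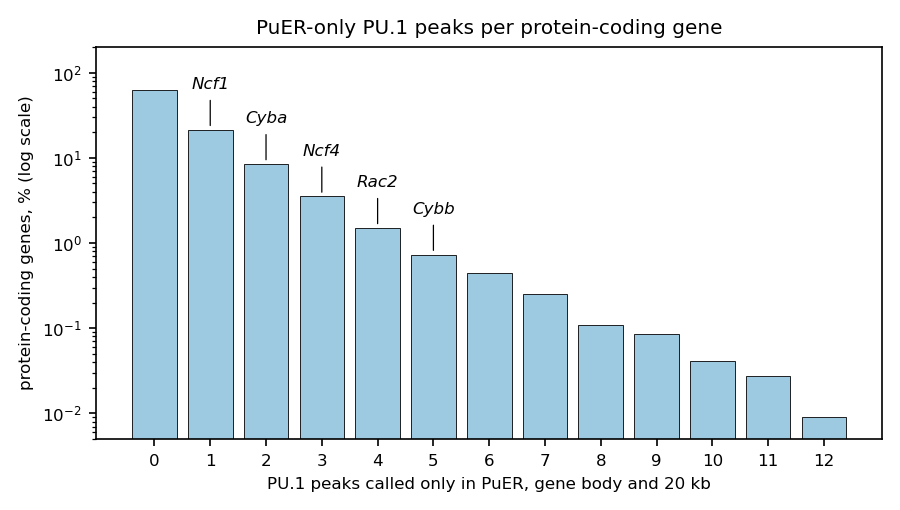
Share of all protein-coding genes (y axis, log scale, in percent) by number of PuER-only PU.1 peaks in the gene body or within 20 kb (x axis). No such peak was found at 63.3% of genes, while the labelled oxidase genes had 1 to 5.

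Cybb, on chrX:9435252-9487771 (minus strand), encodes the catalytic gp91phox. It had 0 PU.1 peaks in EV and 5 in PuER, with 4 CEBPA peaks in EV and 3 in PuER. The 5 PU.1 peaks were centred at +8839, +6404, +20, -1672 and -5246 bp. The annotation reaches upstream of the main start through an alternative transcript, so the last 2 lie in an intron of the annotated gene. The CEBPA peaks of both lines were centred at +8554, +6304 and -1803 bp in EV and at +8510, +6318 and -1803 bp in PuER. PU.1 was called over all 3 of them in PuER, with overlaps of 71, 314 and 269 bp, and over none in EV. The peak on the start and that at -5246 bp had no CEBPA peak in either line. The remaining CEBPA peak, at +19170 bp, was called in EV only and had no PU.1 peak on it.

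Cyba, on chr8:122424776-122432930 (minus strand), encodes p22phox. A readthrough gene model, Gm20388, covers it together with its neighbour Mvd. Cyba had 0 PU.1 peaks in EV and 2 in PuER, with 3 CEBPA peaks in EV and 5 in PuER, and so was the one gene of the 5 with more CEBPA peaks in PuER. Both PU.1 peaks were in introns, at +373 and +2658 bp. That at +373 bp overlapped a shared CEBPA peak by 187 bp. That at +2658 bp overlapped a PuER-only CEBPA peak, centred at +2765 bp, by 293 bp, so both factors were called there in PuER and neither in EV. A second PuER-only CEBPA peak, at -11686 bp, had no PU.1 peak and lay 1194 bp from the start of Mvd, an enzyme of the mevalonate pathway. The shared CEBPA peaks at -3858 and -5257 bp also lay in introns of Mvd and had no PU.1 peak.

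Ncf1, on chr5:134220053-134229625 (minus strand), encodes the organiser p47phox and differed from both membrane subunits in that most of its PU.1 peaks were already called in EV. It had 3 PU.1 peaks in EV and 4 in PuER, and 6 CEBPA peaks in EV and 4 in PuER. The centres of all its PU.1 peaks lay outside the gene body, so this contrast rests on the 20 kb window. The shared PU.1 peaks were centred in PuER at -6 bp on the start, at -3146 bp upstream and at +15018 bp, in an intron of the neighbouring Gtf2ird2 and 497 bp from one of its starts. The last 2 overlapped CEBPA peaks in both lines, by 371 and 335 bp in PuER and by 392 and 385 bp in EV, and each held the ETS word in its centre. No CEBPA peak overlapped the peak on the start, and no match to the ETS word or ETS core was found anywhere in its 400 bp. The PuER-only PU.1 peak at -3730 bp lay 555 bp from the nearest CEBPA centre and did not overlap it. Both CEBPA peaks that were called only in EV lay downstream, at +8157 and +20775 bp. The first was in the Ncf1 untranslated region that overlaps an intron of Gtf2ird2, and the second was in an intron of Gtf2ird2.

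Ncf4, on chr15:78244801-78262580 (plus strand), encodes p40phox. It had 2 PU.1 peaks in EV and 4 in PuER, and 3 CEBPA peaks in each line, all of them shared. The start held a shared PU.1 peak, centred at -17 bp in EV and +22 bp in PuER, which overlapped a shared CEBPA peak by 158 and 220 bp respectively. It held 4 matches to the ETS word in its 400 bp in each line. PuER-only PU.1 peaks were centred at +3812 and +13661 bp, in introns and without CEBPA, and at +33806 bp, beyond the end of the gene, where a shared CEBPA peak overlapped by 344 bp. The start nearest to that last peak, 9340 bp away, was that of Csf2rb2, a cytokine receptor gene. The EV-only PU.1 peak at +12582 bp lay 542 bp from a shared CEBPA peak at +13124 bp. That CEBPA peak was flanked on its other side by the PuER-only PU.1 peak at +13661 bp, so that PU.1 was called on different sides of one CEBPA peak in the 2 lines.

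Rac2, on chr15:78559167-78572783 (minus strand), encodes the haematopoietic Rac GTPase. It had 1 PU.1 peak in EV and 5 in PuER, and 2 CEBPA peaks in each line. The shared PU.1 peak was centred in an intron at +996 bp in EV and +1001 bp in PuER, without CEBPA. A PuER-only PU.1 peak at +11 bp covered the start and overlapped the shared CEBPA peak there by 374 bp. A further PuER-only peak at +8594 bp was intronic and without CEBPA. The other 2, at -16352 and -19196 bp, lay between genes and nearer to the start of Cyth4, an ARF exchange factor gene, at 7912 and 5068 bp. At -16352 bp a PuER-only CEBPA peak overlapped by 375 bp, with centres 25 bp apart. The second CEBPA peak of EV, at -8739 bp, was called in that line only and had no PU.1 peak.

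The peak nearest to the 20 kb limit on the inside was the PU.1 peak of Rac2 at 19196 bp. The nearest on the outside were an EV CEBPA peak 21672 bp from Cyba and a PU.1 peak of both lines upstream of Rac2, 24278 bp away in EV and 24300 bp in PuER.

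Of the 15 PuER-only PU.1 peaks, 6 overlapped a CEBPA peak of EV, which is 40% (interval 16.3 to 67.7%), against 18.1% of all PuER-only PU.1 peaks. The 6 were those of Cybb at +8839, +6404 and -1672 bp, Cyba at +373 bp, Ncf4 at +33806 bp and Rac2 at +11 bp. With the CEBPA list of PuER the count was 8 of 15, or 53.3% (interval 26.6 to 78.7%), against 23.2%. The 2 added were those of Cyba at +2658 bp and Rac2 at -16352 bp, where CEBPA was also PuER-only. The interval for the PuER list did not include the background share and that for the EV list did. These peaks come from 5 chosen loci, several from the same gene, while the intervals treat them as independent. With centres required to lie within 100 bp, the counts were 3 of 15 for the EV list and 4 of 15 for the PuER list (26.7%, interval 7.79 to 55.1%, against 16.9% of all PuER-only PU.1 peaks). The interval then included the background share for the PuER list too, as it did when 50% of both peaks had to overlap (6 of 15, interval 16.3 to 67.7%, against 20.6%). Of the 5 shared PU.1 peaks 3 overlapped CEBPA in each line, against 59.5% of all shared PU.1 peaks with the EV list and 58.2% with the PuER list.

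Seen from CEBPA, 9 of the 14 shared peaks overlapped a PU.1 peak of PuER, which is 64.3% (interval 35.1 to 87.2%), against 20% of all shared CEBPA peaks. When 50% of both peaks had to overlap, this was 7 of 14 (interval 23 to 77%, against 17.7%). With centres within 100 bp it was 5 of 14 (interval 12.8 to 64.9%, against 14.6%). Only the interval of the last rule included the background share. These intervals treat peaks as independent, although several of them came from the same gene, so they do not test for an excess. These peaks too come from 5 chosen loci, where PuER-only PU.1 peaks were denser than around genes in general. In 3 of the 9 that overlapped by 1 bp or more, at Ncf1 and Ncf4, PU.1 was also called in EV. In the other 6 CEBPA was called in both lines and PU.1 in PuER alone. Of the 3 PuER-only CEBPA peaks 2 overlapped PU.1, against 42.6%. Of the 4 EV-only CEBPA peaks 0 did (interval 0 to 60.2%), against 5.7%.

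In the central 80 bp, the ETS word was found in 8 of the 20 PuER PU.1 peaks, which is 40% (interval 19.1 to 63.9%), against 43.5% of all PuER PU.1 peaks. It was found in 4 of the 6 EV peaks (interval 22.3 to 95.7%), against 36.5% of all. The PU.1-type word was found in 5 of 20 (interval 8.66 to 49.1%), against 15.2%: Cybb at +6404 and -5246 bp, Cyba at +373 bp, Ncf4 at +22 bp and Rac2 at -16352 bp. The ETS core was present in 16 of 20, against 70.8%, and the ETS-IRF word in 2 of 20, against 11.8%. The CEBP word was found in the centre of 0 of the 20 PuER PU.1 peaks (interval 0 to 16.8%), against 7.31%, also where CEBPA peaks overlapped them. Over the whole 400 bp it was found in 4 of 20 (interval 5.73 to 43.7%), against 24.9%. In the Cybb peak at +6404 bp, 2 CEBP words lay at 98.5 and 114.5 bp from the PU.1 centre. Both were in the central 80 bp of the overlapping CEBPA peak. All of these background shares were inside the intervals of the members.

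**Figure D4:**
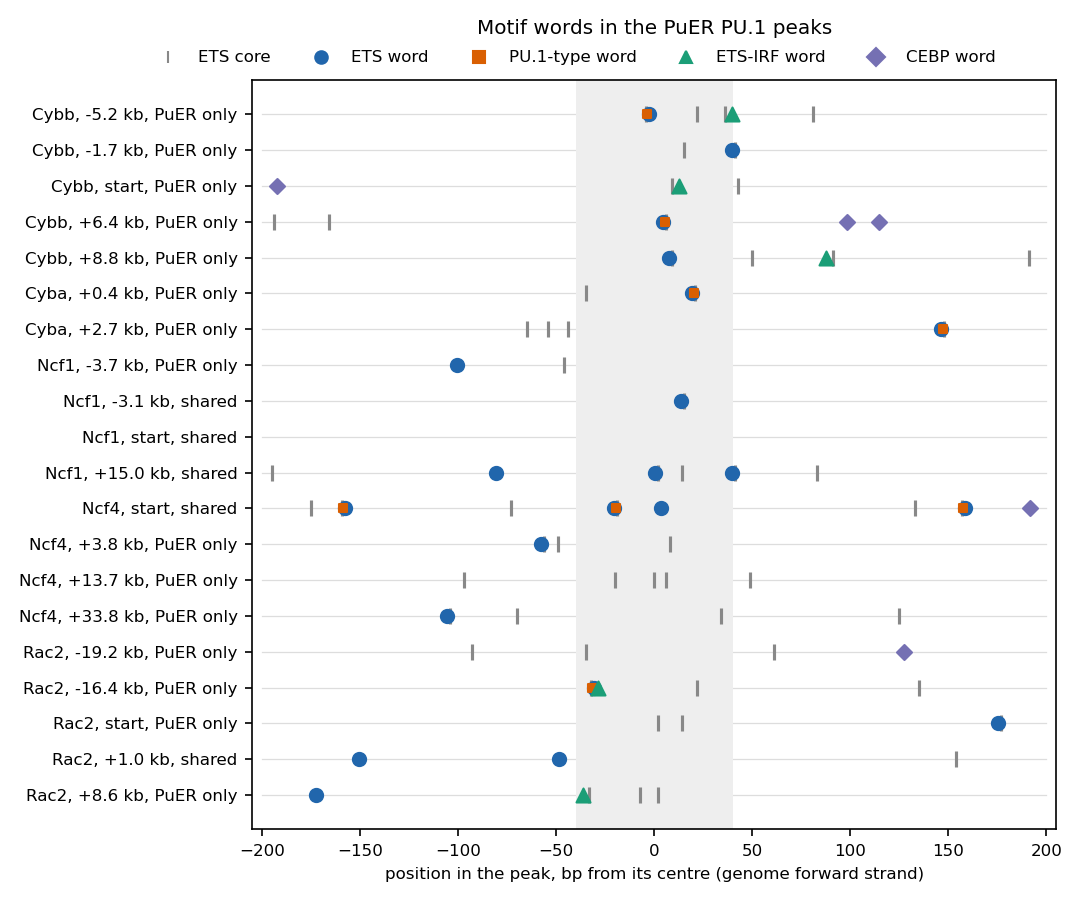
Positions of motif words in the 20 PU.1 peaks of PuER, one row per peak, in bp from the peak centre; the shaded band is the central 80 bp, and a word was counted there only when all of it lay inside. The row of the Ncf1 start is empty, and 16 of the 20 rows have an ETS core inside the band.

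The CEBP word was found in the centre of 7 of the 18 CEBPA peaks of EV, which is 38.9% (interval 17.3 to 64.3%), against 35.6% of all CEBPA peaks of EV. In PuER it was found in 4 of 17, which is 23.5% (interval 6.81 to 49.9%), against 38.2%. The EV peaks with the word included the EV-only ones of Cybb at +19170 bp and Ncf1 at +20775 bp. They also included the shared Cybb peak at +8554 bp, where the word lay at -15.5 bp from the EV centre. From the PuER centre the same word lay at -59.5 bp, outside the central 80 bp (offsets on the genome forward strand). The centres of the 3 PuER-only CEBPA peaks held no CEBP word. That of Rac2 at -16327 bp held the PU.1-type and ETS-IRF words shown above. Promoters, defined as within 1000 bp of an annotated start of a protein-coding gene, held 8 of 20 PU.1 peaks of PuER, 4 of 6 of EV, 5 of 17 CEBPA peaks of PuER and 6 of 18 of EV. Over all peaks the shares at promoters were 12% (PU.1, PuER), 26.6% (PU.1, EV), 17.5% (CEBPA, PuER) and 17.1% (CEBPA, EV). The interval of the members did not include the background share for PU.1 of PuER (19.1 to 63.9%) and included it for the other 3 lists. The members were chosen for lying near genes, which all peaks were not.

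Outside the 5 genes, 22 genes of the pathway were counted as a list. The shares of this list were not set against gene length, which ran from 1.44 kb at Gpx1 to 411 kb at Prkca. The list was chosen with earlier results of these data known, so its shares cannot test for an excess. PuER-only PU.1 peaks were found at 16 of the 22 (median 1 per gene), which is 72.7%, against 36.7% of all protein-coding genes. Shared PU.1 peaks were found at 3 (13.6%, against 13.4%) and EV-only ones at 3 (13.6%, against 13.7%), which is near the background. Shared CEBPA peaks were found at 14 (63.6%, against 48.3%), EV-only ones at 6 (27.3%, against 30.1%) and PuER-only ones at 4 (18.2%, against 11.4%).

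The 3 assembly partners had PuER-only PU.1 peaks and no other class of PU.1 peak: 3 at Rap1a, 2 at Rac1 and 1 at Cybc1, which encodes a chaperone of the membrane core. Among the 5 other catalytic subunits 1 had such a peak (Nox1, with 1), and of the organiser and activator used by other NOX enzymes Noxo1 had 1 and Noxa1 had 0. All 6 kinases and exchange factors had them, with 5 at Prkcb and Vav1, 3 at Prkcd, Prkca and Pak2, and 2 at Pak1. Prkcb and Prkca are long genes (346 and 411 kb) with wider windows than Cybb (52.5 kb) and Vav1 (48.9 kb). Prkcd, a kinase that phosphorylates p47phox, had 4 shared PU.1 peaks besides, and 7 shared CEBPA peaks. The enzymes that use or remove the oxidants had 3 at Mpo, 2 at Gpx1 and 1 each at Cat, Sod1 and Sod2. The proton channel gene Hvcn1 had 0 PuER-only PU.1 peaks, 1 shared PU.1 peak, 4 EV-only CEBPA peaks and 4 shared CEBPA peaks.

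**Figure D5:**
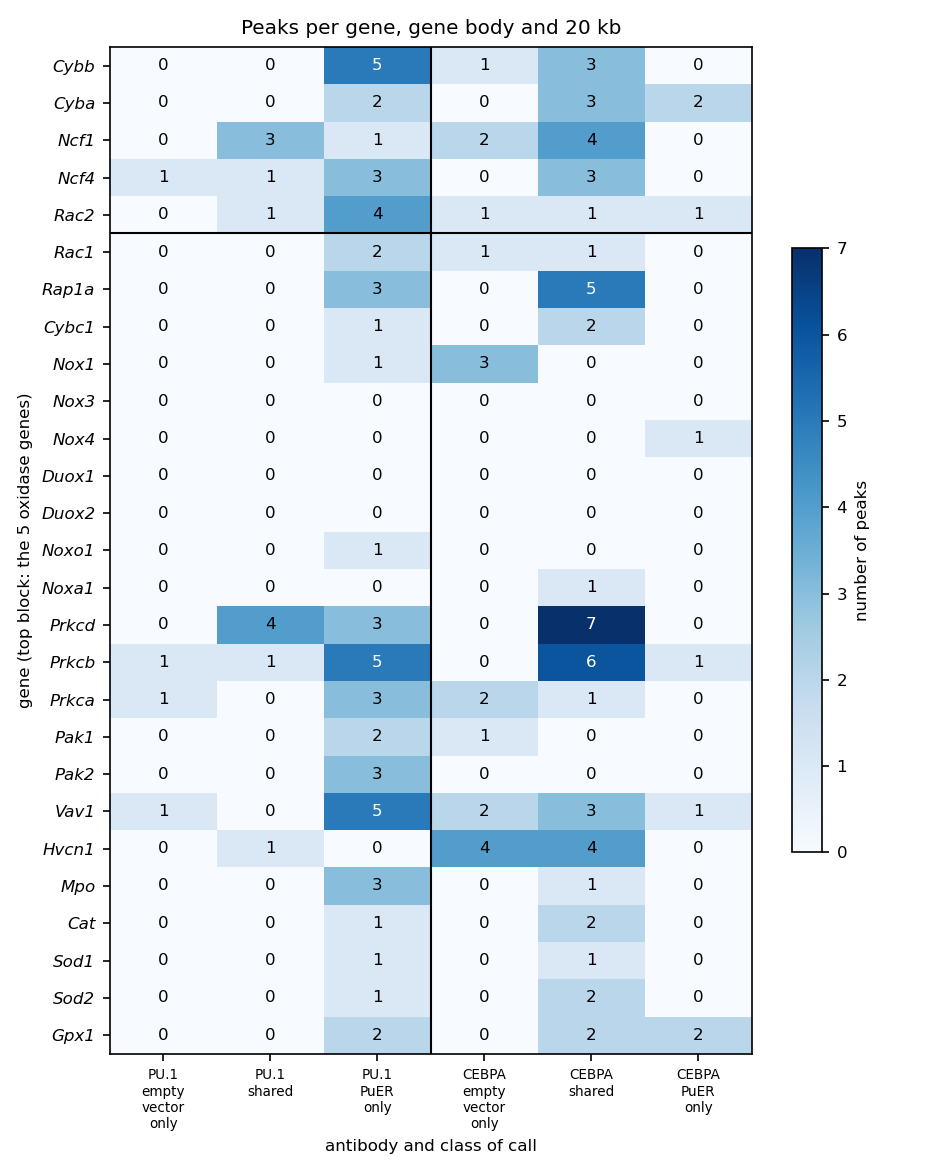
Number of peaks (cell value and shade) of each antibody and class of call (columns) in the gene body or within 20 kb of the 5 oxidase genes (above the line) and of the 22 further pathway genes (rows). The PuER-only PU.1 column is above 0 at 5 of 5 and 16 of 22 genes.

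Likeness between genes was measured as the sum of absolute differences over the 6 counts of peaks (2 antibodies by 3 classes), and genes that shared a peak with the member were left out. The gene most like Ncf1 was Tlr4, at a sum of 1. Ncf4 had the same 6 counts as Bri3bp, Osbpl2 and Rps14, and Rac2 the same as Cela1. For Cybb 12 genes were tied at a sum of 1, and for Cyba 33. Likeness in 6 small counts does not show a shared function, which was not tested.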

How the data were processed

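ChIP-Seq peak lists for PU.1 and CEBPA were available for the EV and PuER clones (1 library for each antibody and line), while H3K27Ac and IgG were not analysed here. Per the labels, the submitters' processing notes name Bowtie2 2.0.6, MACS2 2.0.10 and mm10. The authors deposited peak coordinates only (chromosome, start and end) in intervals that were all 400 bp wide, without read counts, heights or scores. The calling threshold was not given in the sources used here and the depth of each library is unknown, so the lack of a call does not show lack of binding.

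Coordinates are printed 1-based. Genes came from GENCODE M21 (21951 protein-coding genes) and sequence from GRCm38.p6, and of the 5 members 3 had an entry in the RefSeq promoter table. Peaks were assigned to a gene by their centre (gene body and 20 kb), and peaks that overlapped by 1 bp or more were taken as shared. Motif words were sought on both strands in the central 80 bp. Intervals are exact Clopper-Pearson intervals at 95%, cover counting error only and treat peaks as independent. The analysis used Python 3.11.15, numpy 2.4.6, scipy 1.17.1, pysam 0.24.0, matplotlib 3.10.9 and samtools 1.23.1. On simulated data 100% of 4000 peak classes, 2000 window counts and 1800 planted motifs were recovered. The simulated peaks and words followed the same rules, so this checks the counting only. All members were named with every PU.1 peak. Pathway genes were named where they had a PuER-only PU.1 peak, neighbours where a peak lay in or nearest to them, and genes of like pattern where at most 3 were tied. One gene of the pathway list is not reported here and was left out of its counts. Noxa1 and Hvcn1 were named in addition, after their values were seen. The members and lists were chosen with earlier results of these data known. The alternatives covered the window, the overlap rule, the assignment by nearest start, the length searched, other motif words and the promoter distance. RefSeq gene spans, promoters of transcripts annotated as protein-coding, and other overlap rules for the PuER-only PU.1 and shared CEBPA peaks, were added after seeing the data.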

Additional observations from a re-analysis of the deposited data

How the results depend on the processing

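No paired analysis was possible because there was 1 library per antibody and line and no result came from a test. Of 82 recomputed counts over the 5 genes 62 stayed within 1.5 times the reported value and 20 did not, and of 40 counts of single genes 36 and 4. The 15 PuER-only PU.1 peaks stayed within it in all the alternatives run. With the gene body alone, shared PU.1 peaks were 2 instead of 5, shared CEBPA peaks 8 instead of 14, EV-only CEBPA peaks 2 instead of 4, PuER-only CEBPA peaks 1 instead of 3, and PU.1 peaks at CEBPA 7 instead of 11 in PuER and 0 instead of 3 in EV. PuER-only CEBPA peaks were also 1 with a 10 kb window and by nearest start. EV-only PU.1 peaks were 2 with a 50 kb window. PU.1 peaks at CEBPA in PuER were 6 when centres had to lie within 100 bp, and under that rule, for these subsets applied after seeing the data, PuER-only PU.1 peaks at CEBPA were 3 with the EV list and 4 with the PuER list, and shared CEBPA peaks at PU.1 were 5. The PuER-only PU.1 peaks of Ncf1 were 0 with the gene body alone, and those of Rac2 were 2 with that, with 10 kb and by nearest start. The ETS word was found in 16 of 20 PuER peaks over the whole 400 bp, against 64.5% of all PuER PU.1 peaks. In the central 80 bp AGGAA was found in 16 of 20 PuER peaks, against 70.8%, and in 2 of 6 EV peaks, against 53.2%. TTNCNNAA was found in the centres of 13 of 18 CEBPA peaks of EV, against 57.6% of all, and of 11 of 17 of PuER, against 59.7%. Promoters within 2500 bp held 10 CEBPA peaks of EV and 8 of PuER. The cause of these shifts was not tested beyond what each rule counts.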
